A study of Mus musculus with 6 samples.

Results

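The histone genes of the mouse glucagonoma cell line αTC1, a tumour line of pancreatic alpha cells, were examined in poly(A)-primed RNA-seq libraries of cells treated with G786-1089 and of cells given DMSO, the solvent control. Members were the protein-coding genes of the deposited count table whose symbols carry the stems of the histone families H1, H2A, H2B, H3 and H4. This rule used no measured value and found 101 of 55487 genes. Of these, 67 lie in the replication-dependent histone clusters, by their deposited name or by an older Hist name of the same gene identifier, and 34 are variant or testis-type genes. By type the members comprise 44 H2A, 20 H2B, 14 H3, 13 H4 and 10 H1 genes.

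The study developed small molecules against the Tudor domain of SMNDC1, a splicing factor that binds methylated arginines, and G786-1089 is the code by which the labels name the compound given to the treated cells. Both groups are wild-type αTC1 cells, with 3 libraries each, lettered A, B and C in the count table. The labels give no dose, no duration and no structure for this code. For its cell culture work in general, the study's reporting notes say that each replicate's cells came from 1 batch, divided at random between the treatments, and that a replicate's samples were handled jointly. Whether equal column letters mark 1 such replicate is not given in the sources used here, nor whether the batches were separate cultures, so p-values measure the spread between these libraries, which may be technical. The question was which histone transcripts differed between the treatments, and whether the clustered and the variant genes did so alike.

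Histones are the proteins around which DNA is wound in nucleosomes: a core of H2A, H2B, H3 and H4 with the linker histone H1 outside it. As a rule, clustered histone genes are transcribed in S phase, have no introns, and end their mRNA after a conserved stem-loop in place of a poly(A) tail. The stem-loop is bound by SLBP and cut through the U7 small nuclear ribonucleoprotein. Variant histone genes stand alone, are mostly spliced and polyadenylated, and are expressed through the cell cycle. A library primed on poly(A) therefore reads variant mRNAs well and records only the polyadenylated or internally primed fraction of the clustered mRNAs.

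The stem-loop is the sequence that sets the clustered genes apart, so it is shown for the genes the results turn on, in GENCODE vM21 transcripts on GRCm38, as DNA from 5′ to 3′ with the stem-loop in capitals and up to 5 bases on either side in lower case. The given coordinates are those of the 16-base stem-loop. Hist1h2ao (chr13:21810898-21810913, plus strand), Hist1h2ap (chr13:21833029-21833044, minus strand), H2ac4 (chr13:23751572-23751587, plus strand), H2ac8 (chr13:23570668-23570683, minus strand) and H2bu2 (chr11:58949349-58949364, plus strand) carried the commonest version, H4c4 (chr13:23581950-23581965, plus strand) and H4c8 (chr13:23531458-23531473, plus strand) another, and the variant gene H2ax (chr9:44335240-44335255, plus strand) a version of its own.
Hist1h2ao: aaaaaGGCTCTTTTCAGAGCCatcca
Hist1h2ap: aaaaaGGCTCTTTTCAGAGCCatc
H2ac4: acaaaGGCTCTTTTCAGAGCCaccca
H2ac8: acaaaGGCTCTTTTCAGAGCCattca
H2bu2: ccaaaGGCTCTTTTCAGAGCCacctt
H4c4: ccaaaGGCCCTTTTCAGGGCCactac
H4c8: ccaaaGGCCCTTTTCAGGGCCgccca
H2ax: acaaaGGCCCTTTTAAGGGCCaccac

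A stem-loop of this form was found in an annotated transcript of 46 of the 67 clustered genes and of 2 of the 34 variant genes, H2ax and H2bfm, against 0.452% of 21901 protein-coding genes. It lay within the last 60 bases of a transcript in 22 clustered genes, and in 24 protein-coding genes in all. The commonest version was present in 27 members. In 26 clustered genes an annotated transcript ran more than 50 bases past the stem-loop. In the transcript of Hist1h2ao 31 bases followed the stem-loop, in that of Hist1h2ap 3 bases, in that of H2ac8 151 bases ending in a poly(A) signal (AATAAA within the last 40 bases), and in that of H4c4 770 bases. Of the 67 clustered genes, 17 had a poly(A) signal, AATAAA or ATTAAA, in the last 40 bases of a transcript, and 20 of the 34 variant genes did. The clustered H2B genes H2bc4, H2bc6, Hist1h2bp, Hist1h2bq and Hist1h2br have an annotated transcript with an intron. A missing match says only that the letters are not in the annotated transcript, which for some clustered genes holds the coding part alone.

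Library totals were 70150880 to 94747943 counts with G786-1089 and 59070705 to 69480568 with DMSO, so that every treated library was deeper. Of the 8 alpha cell markers, 4 passed the test, all lower: Gcg, the glucagon gene, had a mean of 3125 CPM, the count scaled to library depth, with G786-1089 and 21190.4 with DMSO. The summed CPM of the 8 markers was 5761 to 6486 with G786-1089 and 27214 to 29716 with DMSO. Gc, a secreted protein of these cells, was at 0 in all 6 libraries. Of the 6 beta cell markers, Ins1 and Pdx1 were at 0 in all 6 libraries, and 3 were tested with 0 calls; the summed CPM of the 6 was 4.73 to 11.4 with G786-1089 and 10.3 to 15.4 with DMSO, mostly from Nkx6-1, with Ins2 at up to 1.40 CPM and Iapp at up to 1.72. The delta and PP cell markers, Sst and Ppy among them, were at 0 in all 6 libraries. The summed CPM of the 4 ductal and acinar markers was 27.3 to 44.4 with G786-1089 and 9.01 to 22.0 with DMSO, nearly all from Cela1, an elastase. The part of these differences in the histone results was not tested. In bulk RNA, fewer cells of a type and less RNA per cell cannot be told apart.

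With G786-1089, 11 histone genes fell and none rose past the test. Of the 67 clustered genes 56 passed the filter on low counts, and of the 34 variant genes 8 did. Called at an adjusted p under 0.05 in the quasi-likelihood test of edgeR (Benjamini-Hochberg over 15082 genes), 6 clustered genes were lower and 0 higher, and 5 variant genes were lower and 0 higher. Of all genes tested, 7.8% were called lower and 6.98% higher, or 14.8% in all. With the column letter as a replicate block, edgeR called 2 clustered genes lower, Hist1h2ao and Hist1h2ap, and 5 variant genes lower, with H2az2 in and H2ax out, and 0 histone genes higher, where 4.69% of all genes tested were lower and 3.47% higher. Fold changes are given on the log2 scale, G786-1089 minus DMSO, with their standard error (SE). The 6 clustered calls were all H2A genes: Hist1h2ao, Hist1h2ap, H2ac4, H2ac6, H2ac7 and H2ac8. The 5 variant calls were H2ax, H2az1, H2aj, H3f3a and H3f3b. At an unadjusted p under 0.05 the clustered genes numbered 10 lower and 3 higher, and the variant genes 6 lower and 0 higher; DESeq2 called 2 clustered genes higher, H4c8 and H4c14, and 0 variant genes. Under the limits of the study's methods, which are a log2 fold change of 1 or more in either direction with an adjusted p no higher than 0.1, 5 clustered and 3 variant genes were lower (4.16% of all genes tested) and 2 clustered genes higher (6.25%).

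The clustered genes did not move together. Over the 56 tested clustered genes the median log2 fold change was -0.01 and over the 8 tested variant genes -0.98, beside 0.04 over all genes tested. Within the clusters the medians were -0.55 for 4 H1 genes, -0.86 for 14 H2A genes, 0.12 for 16 H2B genes, 0.44 for 10 H3 genes and 0.84 for 12 H4 genes. Of the tested clustered H2A genes 12 of 14 had a negative log2 fold change, against 3 of 10 H3 genes and 3 of 12 H4 genes. In 11 of the 14 H2A genes every G786-1089 library lay below every DMSO library, whereas 6 of the 12 H4 genes had every G786-1089 library above. Over all genes tested, 18.5% were lower and 18.2% higher without overlap. Across the 21 alternative settings the H2A median ran from -0.94 to -0.65 and the H4 median from 0.50 to 1.33, with 2 to 9 clustered H2A genes called lower and 0 higher.

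**Figure D1:**
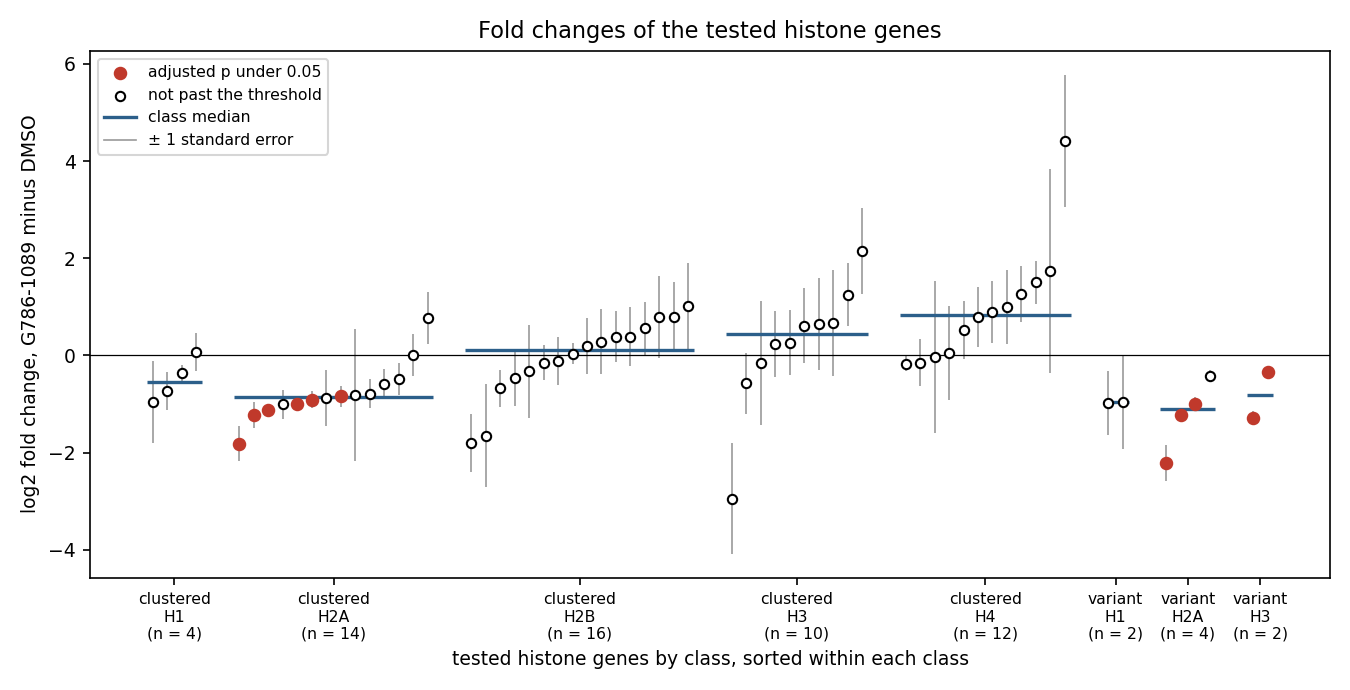
Log2 fold change, G786-1089 minus DMSO, of the 64 tested histone genes, 1 point per gene with its standard error, sorted within each type of clustered and variant gene. Filled points have an adjusted p under 0.05 and blue bars are medians; the 6 filled clustered points are all H2A genes, and the H4 median of 0.84 lies above the H2A median of -0.86.

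Hist1h2ao and Hist1h2ap gave most of the clustered signal. Both code for canonical H2A, which pairs with H2B in the nucleosome core. Hist1h2ao (ENSMUSG00000094248, chr13:21810465-21810944) had 246, 238 and 252 CPM in G786-1089 libraries A, B and C and 528, 533 and 543 CPM in the DMSO libraries. The groups lay far apart, with a log2 fold change of -1.12 (SE 0.06, edgeR adjusted p = 0.00024). Hist1h2ap (ENSMUSG00000094777, chr13:21833026-21833507) had 184, 205 and 226 CPM with G786-1089 and 410, 401 and 414 CPM with DMSO. Again the groups did not overlap, with a log2 fold change of -0.99 (SE 0.09, edgeR adjusted p = 0.0012). Other annotated genes cover 28.75% of the exon bases of Hist1h2ao and 28.6% of those of Hist1h2ap. The transcripts of both genes are identical over 452 bases of 480 and 482, so reads cannot be divided between them with certainty. Their summed level, free of that division, was 430, 443 and 478 CPM with G786-1089 and 938, 934 and 957 CPM with DMSO. The pair took 68.0% ± 0.28 (SD, n = 3) of the summed FPKM (fragment counts scaled by gene length and library depth) of the clustered genes with G786-1089 and 78.5% ± 0.87 with DMSO.

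The other 4 called H2A genes were less abundant and their reads also overlap in sequence with those of other H2A genes. Other annotated genes cover 29.2% of the exon bases of H2ac4, 24.1% of H2ac7, 19.6% of H2ac8 and 9.91% of H2ac6. H2ac8 (chr13:23570517-23571220) had 24.0, 20.3 and 20.4 CPM with G786-1089 and 43.2, 43.4 and 35.3 CPM with DMSO, a log2 fold change of -0.91 (SE 0.18, edgeR adjusted p = 0.018). H2ac6 (chr13:23681467-23683948) had 12.6, 12.9 and 16.7 CPM against 26.6, 25.1 and 24.0 CPM, a log2 fold change of -0.84 (SE 0.21, edgeR adjusted p = 0.041). No treated library of either gene reached the lowest DMSO library. H2ac4 (chr13:23751126-23751598) had 6.31, 7.91 and 10.4 CPM against 18.9, 19.9 and 18.4 CPM, a log2 fold change of -1.22 (SE 0.27, edgeR adjusted p = 0.028). H2ac7 (chr13:23574381-23574952) had 3.46, 2.13 and 2.58 CPM against 9.53, 8.88 and 10.4 CPM, the lowest of the 6 log2 fold changes at -1.82 (SE 0.36, edgeR adjusted p = 0.019). Each of these 4 calls was lost when single libraries were left out: H2ac6 (edgeR adjusted p up to 0.133) and H2ac4 (up to 0.088) without each library but G786-1089 C, H2ac7 (up to 0.070) without each but G786-1089 A, and H2ac8 (up to 0.069) without G786-1089 B or C or DMSO A or B. With the replicate block all 4 were lost as well, at an edgeR adjusted p of 0.058 for H2ac8, 0.111 for H2ac6, 0.081 for H2ac4 and 0.072 for H2ac7. Hist1h2ao and Hist1h2ap passed without each of the 6 libraries and with the block.

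The clustered H2A genes other than the abundant pair also summed lower with G786-1089. Without Hist1h2ao and Hist1h2ap, the clustered H2A genes summed to 78.4, 79.3 and 86.3 CPM with G786-1089 and 149, 148 and 134 CPM with DMSO, so the groups stayed apart. Relative to the other clustered types within each library, a measure that no scaling between libraries can move, these H2A genes made up 31.3% ± 0.17 (SD, n = 3) of the summed FPKM of the clustered genes other than the pair with G786-1089 and 44.4% ± 0.94 with DMSO. With the pair included the shares were 78.0% ± 0.24 and 88.0% ± 0.43. Leaving out the pair does not remove its reads from genes that resemble it. H2ac4, H2ac6 and H2ac7 match Hist1h2ap at 98.0%, 98.5% and 99.0% identity over 394, 398 and 399 bases. Whether reads of the pair, counted on such genes, gave part of their decrease was not tested.

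Summed over all clustered genes the level was 750, 776 and 840 CPM with G786-1089 and 1374, 1347 and 1359 CPM with DMSO, a ratio of 0.58. For H2A the ratio was 0.489 and for H1 0.726, and in both the groups did not overlap. H2B stood at 56.6 ± 5.2 CPM (SD, n = 3) with G786-1089 and 56.4 ± 3.0 with DMSO, and H4 at 107 ± 18 and 97.8 ± 2.4, with overlapping groups in both. H3, at 15.4 ± 2.8 and 11.3 ± 1.5 CPM, overlapped as well. Per FPKM, H4 was higher with G786-1089 without overlap. On library size only, without TMM factors, H4 and H3 no longer overlapped and were higher with G786-1089, while H2A and H1 stayed lower; that scaling moves the median log2 fold change of all genes from 0.04 to 0.25.

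**Figure D2:**
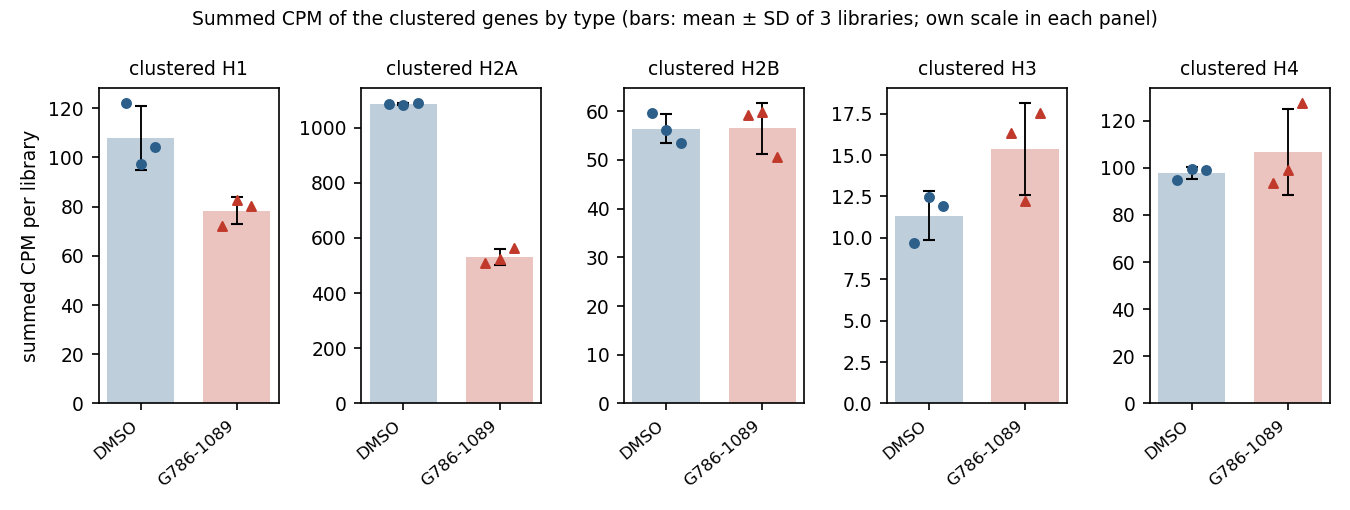
Summed CPM (counts scaled to TMM-adjusted library sizes) of the clustered genes of each type, 1 point per library, bars as mean ± SD of 3 libraries, each panel on its own scale from 0. The H2A sums are 508 to 564 with G786-1089 and 1082 to 1091 with DMSO, whereas the H2B points of the groups overlap.

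Many clustered H2A and H2B genes stand back to back and share the stretch between their starts, which allows a comparison within gene pairs. Of 12 such pairs, with starts 176 to 306 bases apart in the annotation, both genes could be tested in 11. The H2A gene had the lower log2 fold change in 10 of the 11 pairs, with medians of -0.84 for the H2A and 0.29 for the H2B genes. The ratio of H2A to H2B counts within a library was lower in every G786-1089 library than in every DMSO library in 6 pairs, and higher in 0. For H2ac7 and H2bc7 the ratio was 3.50, 2.37 and 1.92 with G786-1089 and 25.2, 44.4 and 8.10 with DMSO. For H2ac15 and H2bc15 it was 2.02, 2.84 and 2.51 against 6.72, 5.46 and 10.9. The exception was H2ac20 with H2bc21, where the H2A gene had a log2 fold change of 0.77 (SE 0.53) and the H2B gene of -1.65 (SE 1.06). In the other 10 pairs the H2A gene was Hist1h2ao or Hist1h2ap, or matched either at 95% identity or more over at least 100 bases. Reads may be shared among these H2A genes, so the 10 pairs are not separate comparisons. H2ac20 had no such match to either gene. The part of these matches in the contrast was not tested. The H2B genes of the pairs had few reads, with none past the test. In the tested H2A genes of the pairs, other annotated genes cover from 9.91% (H2ac6) to 35.9% (Hist1h2an) of the exon bases. In their H2B partners they cover none. The counting left out reads that fell on more than 1 gene, and the part of this in the contrast was not tested.

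**Figure D3:**
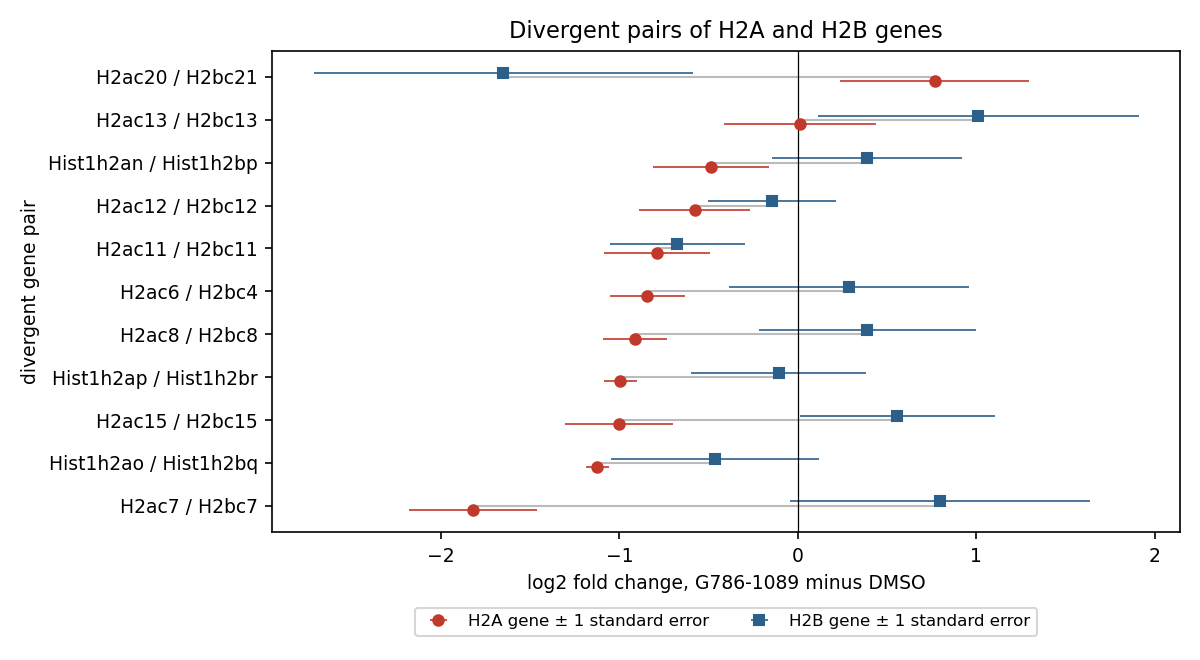
Log2 fold change, G786-1089 minus DMSO, of the H2A gene (circles) and the H2B gene (squares) of the 11 tested divergent pairs, with standard errors. The circle lies left of the square in 10 of 11 pairs, and H2ac20 with H2bc21 is the exception.

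The promoter of several of these pairs holds an octamer, the letters ATTTGCAT or their reverse complement, a motif known in H2B promoters as the site of OCT1. In RefSeq promoters of 250 bases before to 50 after the gene start (GRCm38.p6), matched for 54 of 67 clustered and 33 of 34 variant genes, the octamer was found in 14 clustered genes, 7 of them H2A and 7 H2B, and in H3f3b among the variants, against 1.97% of all genes. It is shown in capitals with 8 bases on either side, on the strand of the named gene. Shown are the 3 called H2A genes found to carry it, among those with a matched promoter, and H2bc8, which shares its site with H2ac8. The windows are chr13:23750951-23750974 for H2ac4 (plus strand), chr13:23684074-23684097 for H2ac6 (minus strand) and chr13:23571333-23571356 for H2ac8 (minus strand) and H2bc8 (plus strand).
H2ac4: aggcctttATGCAAATgaggagct
H2ac6: gtgggattATGCAAATgaagtttc
H2ac8: gaggttctATGCAAATaagggact
H2bc8: agtcccttATTTGCATagaacctc

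Around the same octamer, H2ac8 fell and H2bc8 had a log2 fold change of 0.39 (SE 0.61, edgeR adjusted p = 0.75). H2bc8 stood at 2.58, 2.97 and 2.50 CPM with G786-1089 and 1.18, 3.62 and 1.34 CPM with DMSO, with overlapping groups. H2ac12 and H2bc12, the other tested pair with a shared octamer, were both negative. Their log2 fold changes were -0.58 (SE 0.31) and -0.15 (SE 0.36). The median log2 fold change was -0.82 over the 6 tested H2A genes with the octamer and 0.20 over the 5 tested H2B genes with it. CCAAT (both strands) was found in 47 of the 54 clustered promoters against 41.1% of all genes, in all 15 H2A promoters and in 3 of 10 H4 promoters. TATAAA (both strands) was found in 31 against 15.7%. Among the H2A genes with a matched promoter, called and uncalled ones alike held CCAAT, and no factor was measured. No promoter was matched for Hist1h2ao or Hist1h2ap, so neither the octamer nor the other motifs were read for this called pair.

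Of the other abundant clustered genes none passed. H4c4, coding for H4, had 60.4, 62.4 and 83.8 CPM with G786-1089 and 77.1, 74.4 and 80.6 CPM with DMSO, and its log2 fold change of -0.17 (SE 0.16, edgeR adjusted p = 0.56) changed sign on library size only and with gene length offsets. H2bu2, an H2B gene on chromosome 11, had 26.5, 29.4 and 20.4 CPM against 27.7, 20.9 and 25.9 CPM, a log2 fold change of 0.04 (SE 0.22, edgeR adjusted p = 0.94). In both genes the groups overlapped.

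None of the 4 tested clustered linker histone genes passed; 3 had a negative log2 fold change, and H1f2 had one of 0.07. H1f4 had 57.0, 45.2 and 44.2 CPM with G786-1089 and 72.4, 57.5 and 58.9 CPM with DMSO, a log2 fold change of -0.37 (SE 0.17, edgeR adjusted p = 0.22). H1f4 shares 25.7% of its exon bases with other annotated genes. H1f5 had 10.2, 29.3 and 27.97 CPM against 41.1, 34.1 and 36.8 CPM, and G786-1089 library A lay apart from its own group; its log2 fold change came to -0.73 (SE 0.39, edgeR adjusted p = 0.29). Hist1h2an, the remaining one of the 10 most abundant clustered genes, had 5.15, 8.26 and 9.14 CPM against 11.7, 10.2 and 9.71 CPM, a log2 fold change of -0.49 (SE 0.32, edgeR adjusted p = 0.39).

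Among the less abundant clustered genes 3 were singled out after their values were seen. H4c14 had 5.67, 4.25 and 7.63 CPM with G786-1089, from 424, 426 and 662 counts, and 0.197, 0.616 and 0 CPM with DMSO, from 12, 40 and 0 counts. This was the widest gap of any clustered gene, at a log2 fold change of 4.42 (SE 1.36, edgeR adjusted p = 0.080). H4c8 had 6.42, 5.25 and 6.42 CPM against 2.48, 1.32 and 2.58 CPM, a log2 fold change of 1.50 (SE 0.44, edgeR adjusted p = 0.069). H2ac15 had 4.73, 5.05 and 5.36 CPM against 8.28, 10.8 and 11.2 CPM, a log2 fold change of -1.0 (SE 0.30, edgeR adjusted p = 0.075). The groups did not overlap in these 3 genes, and all 3 were called by DESeq2. The remaining tested clustered genes had log2 fold changes from -2.94, for H3c7, to 2.15, for H3c15, and neither passed in edgeR. DESeq2 also called H3c7, H2bc9, H2ac11 and H2ac12 lower. H2bc9, an H2B gene, was lower under the limits of the study's methods as well.

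Of the 11 clustered genes that did not pass the filter, 7 were at 0 in all 6 libraries. Among them H2ac18, H2ac19, H2bc18, H3c13 and H3c14 have all of their exon bases inside other annotated genes, and the counting left out reads that fell on more than 1 gene, so these zeros do not measure the transcripts. Near-identical copies, at 95% identity over 100 bases or more, were found for 56 of the 67 clustered genes. Summed over the 11 clustered genes without such a copy, the log2 ratio of G786-1089 to DMSO was -0.24, against -0.79 over all 67. Those 11 genes include H4c4 and H1f5 but none of the called H2A genes. Their only H2A genes are H2ac1 and H2ac21, so the sums differ in histone type as well as in copies.

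Variant genes carried most histone reads. Per length, the 34 variant genes summed to 3965 ± 257 FPKM (SD, n = 3) with G786-1089 and 6743 ± 169 with DMSO, and the 67 clustered genes to 1263 ± 72 and 2296 ± 13. The clustered share of all histone FPKM was 22.3% to 25.4% with G786-1089 and 25.0% to 25.8% with DMSO, with overlapping groups. By FPKM with DMSO the order of the 8 tested variant genes was H2az1 at 3547 ± 34 (mean ± SD, n = 3), H3f3b at 2845 ± 153, H2az2 at 202 ± 19, H2aj at 76.6 ± 3.2, H3f3a at 61.1 ± 6.7, H2ax at 6.25 ± 0.85, H1f0 at 3.92 ± 2.61 and H1f10 at 0.735 ± 0.307. Of neighbours in this order, H2ax and H1f0 overlapped between libraries, as did H1f0 and H1f10, and the others did not. With G786-1089 H3f3b, at 2240 ± 178 FPKM, stood above H2az1, at 1508 ± 96.

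**Figure D4:**
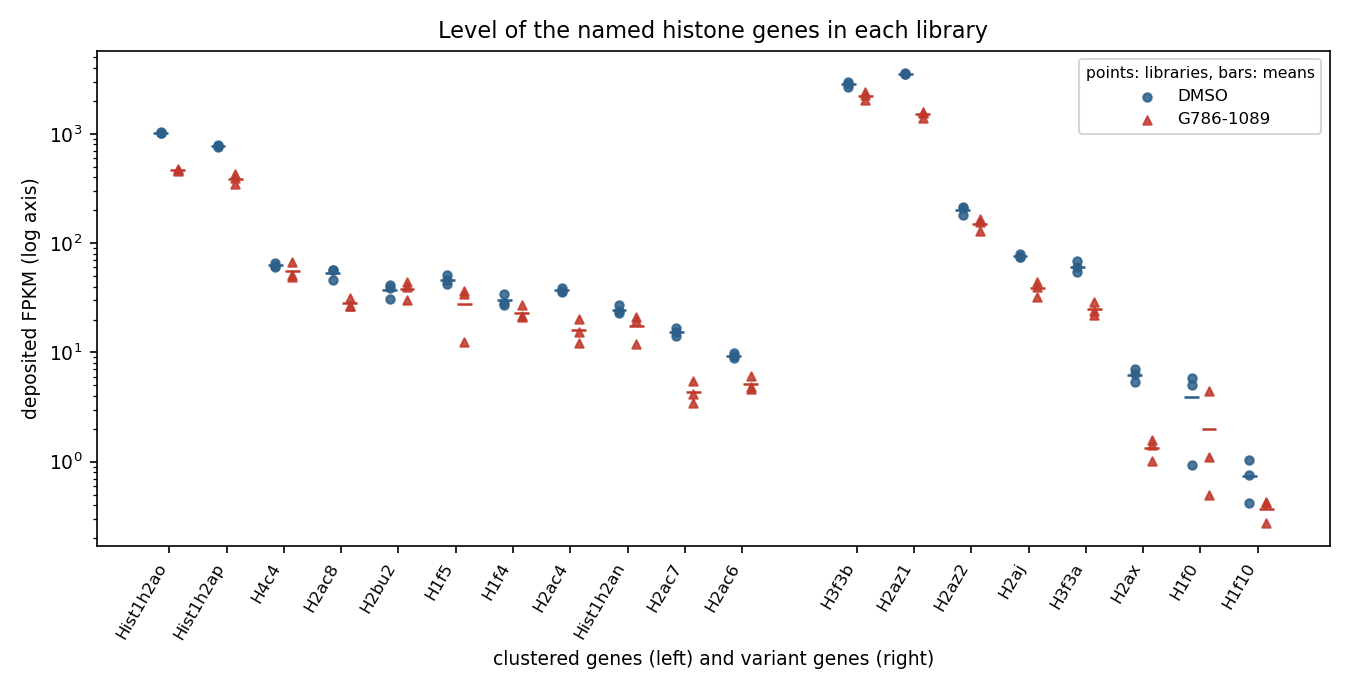
Deposited FPKM (log axis) of the named clustered genes (left) and variant genes (right) in each library, with bars at the mean of 3 libraries. H2az1 lies at 3515 to 3583 with DMSO and 1401 to 1586 with G786-1089, whereas the points of H4c4, H2bu2, H1f0 and H1f10 overlap between the groups.

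H2A.Z replaces H2A in nucleosomes at gene starts and is coded by 2 genes, H2az1 and H2az2. H2az1 (ENSMUSG00000037894, chr3:137864487-137866922) had 1856, 1623 and 1800 CPM with G786-1089 and 4171, 4099 and 4115 CPM with DMSO. With a log2 fold change of -1.23 (SE 0.06, edgeR adjusted p = 0.00012) it fell to 42.6% of the DMSO level, in every setting and without each library. H2az2 (chr11:6427229-6444443) had 230, 274 and 297 CPM against 320, 376 and 380 CPM. The groups did not overlap, and its log2 fold change came to -0.43 (SE 0.12, edgeR adjusted p = 0.063); 6 of 15 alternatives other than left-out libraries put it past the threshold, the replicate block among them (edgeR adjusted p = 0.048). H2az1 made up 90.9% ± 1.4 (SD, n = 3) of the FPKM of both genes with G786-1089 and 94.6% ± 0.5 with DMSO, without overlap.

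Of the other H2A variants, H2ax codes for H2A.X, which is phosphorylated around DNA double-strand breaks. H2ax (chr9:44334694-44336077) had 2.42, 1.54 and 2.16 CPM with G786-1089 and 8.07, 10.6 and 9.57 CPM with DMSO, the lowest log2 fold change of the variant genes at -2.21 (SE 0.38, edgeR adjusted p = 0.011). This call was lost with the replicate block (edgeR adjusted p = 0.061). Its stem-loop, shown above, is followed by 822 bases ending in an ATTAAA signal. H2aj (chr6:136808244-136810074), coding for H2A.J, had 63.9, 87.3 and 79.5 CPM against 148, 160 and 150 CPM, a log2 fold change of -0.99 (SE 0.14, edgeR adjusted p = 0.0056). In both genes every treated library lay below every DMSO library.

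H3.3, the replacement H3 that is deposited outside replication, is coded by H3f3a and H3f3b. H3f3a (chr1:180800832-180813943) had 78.5, 94.3 and 72.6 CPM with G786-1089 and 179, 198 and 222 CPM with DMSO, a log2 fold change of -1.29 (SE 0.14, edgeR adjusted p = 0.0022). H3f3a shares 22.8% of its exon bases with other annotated genes, and 22 annotated genes hold a near-identical copy, so its level is uncertain. H3f3b (chr11:116021912-116027962) had 6593, 5572 and 6277 CPM against 7816, 7369 and 8172 CPM. Its groups did not overlap either, but the decrease was smaller, at a log2 fold change of -0.34 (SE 0.07, edgeR adjusted p = 0.022), and the call was lost on library size only (log2 fold change -0.13) and without G786-1089 library C, DMSO library A or DMSO library C, with an edgeR adjusted p of up to 0.073. H3f3a made up 0.988%, 1.40% and 0.959% of the FPKM of both genes with G786-1089 and 1.88%, 2.20% and 2.23% with DMSO. The gene with the smaller share thus fell further within each library.

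The variant linker histones were scarce and variable. H1f0, coding for H1.0 of slowly dividing cells, had 1.12, 2.49 and 9.94 CPM with G786-1089 and 12.9, 11.3 and 2.08 CPM with DMSO, so that library C of each group lay within the range of the other. H1f10 stood at 0.562, 0.359 and 0.565 CPM against 1.0, 0.554 and 1.36 CPM, with overlapping groups. Their log2 fold changes were -0.96 (SE 0.96) and -0.97 (SE 0.66), with edgeR adjusted p of 0.59 and 0.40. The 26 variant genes that did not pass the filter were 22 H2A, 2 H2B and 2 H1 genes, most of them known from testis; 23 were at 0 in all 6 libraries.

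Genes that act on histone mRNA were taken as a list of transcription factors, stem-loop and cleavage factors and decay enzymes. Of 43 listed, 41 were in the table and tested; 6 rose (14.6%, beside 6.98% of all genes tested) and 1 fell (2.44%, beside 7.8%), with a median log2 fold change of 0.15. Slbp, the protein that binds the stem-loop, had 394, 349 and 353 CPM with G786-1089 and 245, 234 and 263 CPM with DMSO, a log2 fold change of 0.56 (SE 0.09, edgeR adjusted p = 0.0078). Hinfp, the activator of H4 genes, had 15.2, 26.4 and 12.8 CPM against 2.40, 3.94 and 2.12 CPM, a log2 fold change of 2.68 (SE 0.43, edgeR adjusted p = 0.0092). Both were higher in every treated library. Fip1l1 and Cstf1, cleavage and polyadenylation factors, rose by log2 fold changes of 1.53 and 0.77, Coil, the coilin of Cajal bodies, by 1.27, and Exosc10, a nuclear exosome nuclease, by 0.69. Mblac1, a nuclease of histone pre-mRNA, was the gene that fell, at 5.40, 2.16 and 4.15 CPM against 15.5, 12.1 and 12.5 CPM, a log2 fold change of -1.78 (SE 0.41, edgeR adjusted p = 0.032). The Mblac1 call was lost without each library but G786-1089 A (edgeR adjusted p up to 0.103), that of Coil without each but DMSO A (up to 0.112) and that of Exosc10 without DMSO B or C (up to 0.054), and all 3 were lost with the replicate block.

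Chaperones and variant deposition factors held calls in both directions. Of 42 listed, 41 were in the table and tested; 6 fell (14.6%, beside 7.8% of all genes tested) and 4 rose (9.76%, beside 6.98%), with a median log2 fold change of -0.03. Anp32e, the chaperone that removes H2A.Z, had 32.3, 27.8 and 38.4 CPM with G786-1089 and 111, 103 and 100.3 CPM with DMSO, a log2 fold change of -1.67 (SE 0.16, edgeR adjusted p = 0.0012). Znhit1, a subunit of the complex that inserts H2A.Z, had 110, 126 and 115 CPM against 189, 190 and 191 CPM, a log2 fold change of -0.70 (SE 0.09, edgeR adjusted p = 0.0042). Cenpa, the centromeric H3 variant whose symbol the rule does not cover, had 334, 328 and 358 CPM against 647, 624 and 672 CPM, a log2 fold change of -0.93 (SE 0.07, edgeR adjusted p = 0.00053). These 3 genes were lower in every treated library. Rbbp4, Rbbp7 and Npm3, histone-binding chaperones, fell by 1.02, 0.69 and 0.67 on the log2 scale. Tonsl, a reader of newly deposited histones, rose from 35.0, 55.3 and 33.3 CPM with DMSO to 140, 125 and 137 CPM with G786-1089, a log2 fold change of 1.70 (SE 0.22, edgeR adjusted p = 0.0039), and Npm1 had a log2 fold change of 0.30. Calls were lost without single libraries for Npm1 (each but G786-1089 C, edgeR adjusted p up to 0.084), Rbbp4 (G786-1089 A or C, DMSO A or C, up to 0.081), Npm3 (G786-1089 C, DMSO A or C, up to 0.058) and Rbbp7 (G786-1089 C, 0.051), and with the replicate block for Npm1, Rbbp4 and Npm3.

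Because clustered histone mRNA follows S phase, genes of DNA replication were counted beside it. Of 44 listed and tested, 9 rose (20.5%, beside 6.98% of all genes tested) and 4 fell (9.09%, beside 7.8%), with a median log2 fold change of 0.18. The licensing factors Cdc6 and Cdt1 rose by log2 fold changes of 1.56 (SE 0.11) and 1.50 (SE 0.20), the helicase subunits Cdc45 and Mcm7 by 0.83 and 0.39, the polymerase subunit Pold1 by 0.72 and the uracil glycosylase Ung by 1.03. Rrm2, the ribonucleotide reductase subunit of S phase, fell by 0.99 on the log2 scale (SE 0.08, edgeR adjusted p = 0.00075), at 493, 461 and 484 CPM against 966, 860 and 1022 CPM, and Dut, which removes dUTP, fell by 0.68. The part of cell cycle position in the histone results was not tested.

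**Figure D5:**
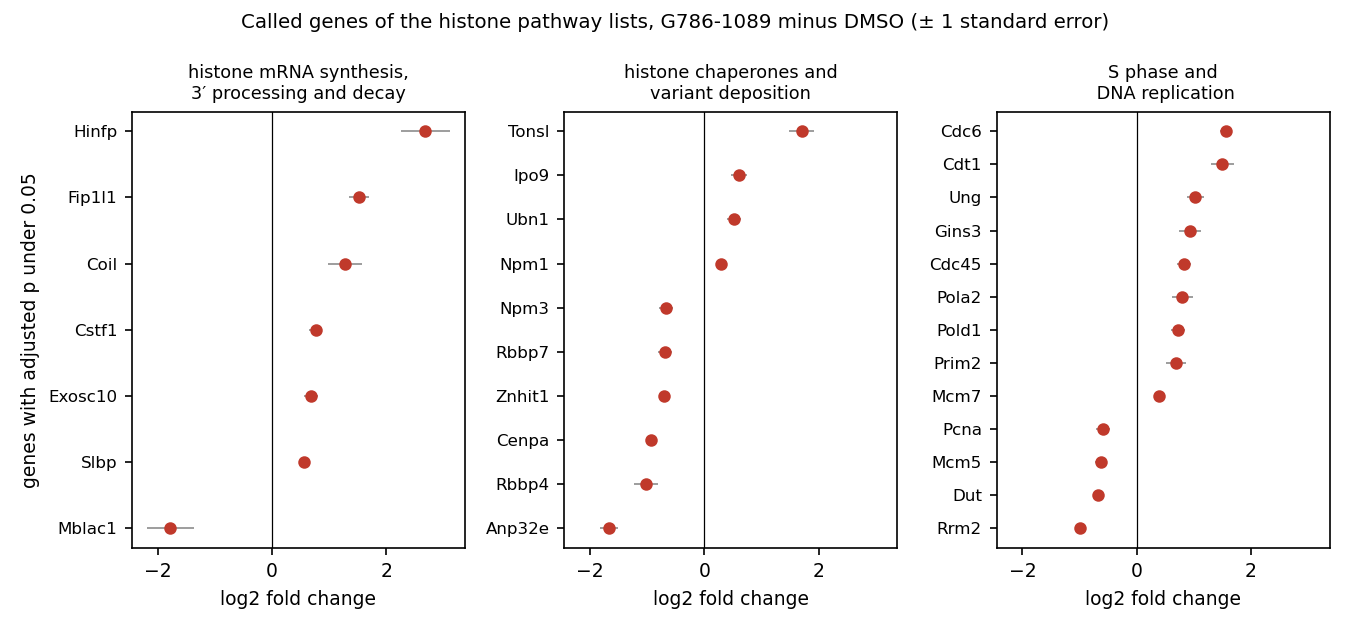
Log2 fold changes with standard errors, G786-1089 minus DMSO, of the genes with an adjusted p under 0.05 in 3 lists: histone mRNA synthesis, processing and decay (6 higher, 1 lower), chaperones and variant deposition (4 higher, 6 lower), and S phase and DNA replication (9 higher, 4 lower). Hinfp, at 2.68, is the highest and Mblac1, at -1.78, the lowest.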

How the data were processed

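RNA of αTC1 cells was converted to cDNA by Smart-seq2, which primes on poly(A), and made into libraries with Nextera XT, without strand information. The authors aligned reads with STAR 2.7.9a to GRCm38 and deposited raw counts per gene, in which reads on more than 1 gene were left out, and FPKM values computed by the authors from those counts; Picard 2.19.2, DESeq2 1.34.0 and R 4.1.3 are named in the submitters' processing notes. Even numbers made up 78.1% of the counts from 1 to 10, and counts are thus not numbers of independent fragments.

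Counts were tested with edgeR 4.0.16 in R 4.3.3 (filterByExpr at 10 counts and a total of 15, TMM, quasi-likelihood F test, Benjamini-Hochberg adjustment over all genes tested), with no covariate. CPM are on TMM-scaled library sizes. DESeq2 1.42.0 and limma 3.58.1 (log2 of FPKM plus 1 or 0.1) served as alternatives, beside RLE factors, library size only, other filters, a log2 threshold of 0.5 (glmTreat), the limits of the study's methods (adjusted p of at most 0.1, absolute log2 fold change of at least 1), offsets for gene length or GC content, thinned counts, a replicate block and each library left out. Tested on simulated counts for this comparison over 14465 genes, edgeR called 14.6% of genes changed by a log2 of 1 and 41.1% of those changed by 2. An exact permutation test of 3 against 3 libraries cannot go below 0.1, and none was used.

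The members and lists were chosen with earlier results of these data known. Named were every tested variant gene, the called clustered genes and the 10 with the highest mean CPM, and up to 8 called genes of each list with the smallest p. Groups come from the column names, whose letters have no match among the labels' replicate numbers. The study's notes on joint handling of each replicate name no letters; deviations from the group means of libraries with the same letter correlated at 0.00 to 0.03, and the fit with letters as a replicate block is given beside the calls it changes. Transcripts and coordinates are from GENCODE vM21, where all 101 members were found by identifier; near-identical copies were searched with blastn 2.17.0. Promoters are from RefSeq. Summed levels are descriptions with no test.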

Additional observations from a re-analysis of the deposited data

How the results depend on the processing

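Calls at an adjusted p under 0.05 numbered 2230 genes, and 4276 with DESeq2, 804 against a log2 threshold of 0.5, and 1253 to 1556 with a library left out. Library size only gave 1630 higher and 796 lower, against 1053 and 1177. Clustered genes lower were 6, and 11 with DESeq2, 9 with limma at an FPKM minimum of 1 under either pseudocount, 2 against the log2 threshold, 4 on library size only, 4 with length offsets and 2 to 4 with a library left out. Clustered genes higher were 0, and 2 with DESeq2, 2 under the limits of the methods, 1 on library size only, 1 with length offsets, 1 with 10 counts in every library, 4 with limma at an FPKM minimum of 1 under either pseudocount, 2 with limma and no minimum, and 0 to 1 with a library left out. Variant genes lower were 5, 3 under the limits of the methods and 4 to 5 with a library left out. The cause of these differences was not tested.

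The median log2 fold change of tested clustered genes, -0.01, was 0.19 on library size only, 0.19 with length offsets, -0.093 with GC offsets and -0.11 to 0.083 with a library left out. That of variant genes, -0.98, was -1.23 with DESeq2, -0.77 on library size only, -1.22 with 1 count in any library, -0.84 with length offsets, -1.07 with GC offsets, -1.08 with limma at a pseudocount of 0.1, -0.43 with limma and no minimum, and -1.14 to -0.94 with a library left out. The log2 ratio of summed CPM, -0.79 for clustered genes, was -0.58 on library size only, -0.60 without Hist1h2ao and -0.24 over genes with no near-identical copy. The clustered genes with no such copy hold none of the called H2A genes. For variant genes the ratio, -0.60, was -0.39 on library size only, -0.77 from FPKM, -1.15 without H3f3b and -0.44 with no near-identical copy. The exact commonest stem-loop was found in 27 members in place of 48. H4c4 turned positive on library size only (0.041), with length offsets (0.011) and with these and the block (0.0026), and H2bu2 negative without library B of either group, in a range of -0.082 to 0.17 with a library left out.

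With column letters as a replicate block 1232 genes were called, and 1025 with length offsets; clustered genes lower were 2 in both, the clustered median was 0.22 with block and offsets, and the variant median was -1.12 with the block. H2ax lost its call under the block (edgeR adjusted p up to 0.073), as did H2ac4, H2ac6, H2ac7 and H2ac8. Splitting clustered from variant genes by deposited name alone, an alternative chosen after seeing the data, changed no count of calls. Most clustered genes had under 5 CPM, where these 6 libraries detect only wide differences.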

Other observations

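Histone symbols outside the protein-coding rows gave low levels and no call among those described here. Of 11 further rows that match the symbols, 10 are pseudogenes and 1 is an antisense gene. H2ac14, an H2A pseudogene, stood at 3.90, 2.75 and 4.95 CPM with G786-1089 and 7.05, 7.91 and 7.69 CPM with DMSO, with an edgeR adjusted p of 0.15. H3f3c, H3f3a-ps1 and H3f3a-ps2, copies of H3f3a, had log2 fold changes of -1.55, -1.08 and -1.29, with edgeR adjusted p of 0.098, 0.43 and 0.076. In these 4 rows every treated library lay below every DMSO library, and none passed the test.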
